A study of Mus musculus with 6 samples.

Results

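The data describe 7 genes of the sterol pathway in peripheral invariant natural killer T (iNKT) cells of the mouse: Srebf2, Insig1, Hmgcs1, Idi1, Fdps, Fdft1 and Sqle. They were taken by gene symbol from the 27998 genes that every library lists. Although the set was put together as sterol synthesis and uptake genes, its members are enzymes of synthesis and regulators, and no uptake receptor is among them. iNKT cells are T cells with a near invariant receptor for lipids presented by CD1d. The cells came from liver, spleen and lymph node of wild-type C57BL/6 mice aged 5 weeks, with 2 libraries per organ and 6 in all. All 3 groups share strain, genotype and age and went through the same steps, a depletion of CD8+ and B220+ cells and a sort for TCR-β and the CD1d tetramer. The study's methods call the libraries of an organ biological repeats. Sex, batch and the number of mice per library are missing from the labels, and the molecule is labelled nuclear RNA, although the protocol describes sorted cells.

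Sterols are made from acetyl-CoA by a chain of enzymes that first builds isoprenoid units and then squalene, the precursor of the sterol rings. The chain is controlled by SREBP-2, the transcription factor encoded by Srebf2, which is held in the endoplasmic reticulum by the SCAP and INSIG proteins while sterol is plentiful and is released to the nucleus when sterol runs low. Insig1 is itself a target of SREBP-2, and T cells are known to raise this pathway when they divide.

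Of the enzymes, Hmgcs1 makes HMG-CoA at the start of the chain, Idi1 interconverts both 5-carbon isoprenoid units, Fdps joins them to farnesyl diphosphate, Fdft1 makes squalene from farnesyl diphosphate, and Sqle oxidises squalene before the rings close. In GENCODE vM21, which is on GRCm38 (mm10), all 7 are protein-coding genes. Srebf2 lies at chr15:82147181-82205379 on the plus strand and Insig1 at chr5:28071363-28078662 (plus). Hmgcs1 lies at chr13:119690379-119708260 (plus), Idi1 at chr13:8885501-8892451 (plus), Fdps at chr3:89093588-89101959 (minus), Fdft1 at chr14:63145150-63179578 (minus) and Sqle at chr15:59315077-59331192 (plus). Fdps shares 1124 exonic bases with Gm43738 on the same strand, a gene that had 0 to 2 UMIs per library. How reads in the shared bases were assigned is not stated, so this low count does not show that Fdps values are unaffected. The Fdft1 exons overlap those of Ctsb on the opposite strand over 774 bases, and whether the counting used strand is not stated, so Fdft1 values are less certain. Chromium 3′ libraries count transcript ends and are not scaled by length, so levels of different genes were not ranked against each other.

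The sequence in front of 3 of the members is shown because SREBP-2 is known to act through short elements there, together with factors that bind a CCAAT box or a GC box. RefSeq promoter sequences (GRCm38.p6) were matched for 4 of the 7 members by symbol. Each line gives the 145 bases before the earlier of the RefSeq and GENCODE starts, on the plus strand, 5′ to 3′. Capitals mark matches on either strand. The core of the sterol regulatory element (SRE core) was searched as TCACNCCA. The GC box was searched as GGGCGG. The E-box was searched as CACGTG. The CCAAT box was searched by the letters of its name. The windows are chr13:119690206-119690350 for Hmgcs1, chr15:82147036-82147180 for Srebf2 and chr5:28071218-28071362 for Insig1.
Hmgcs1: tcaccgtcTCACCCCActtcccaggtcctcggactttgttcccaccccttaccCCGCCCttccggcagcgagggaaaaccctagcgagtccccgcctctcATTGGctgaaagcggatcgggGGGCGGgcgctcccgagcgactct
Srebf2: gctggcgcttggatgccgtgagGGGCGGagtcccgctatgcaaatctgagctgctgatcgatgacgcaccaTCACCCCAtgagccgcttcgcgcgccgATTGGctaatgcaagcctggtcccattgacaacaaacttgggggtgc
Insig1: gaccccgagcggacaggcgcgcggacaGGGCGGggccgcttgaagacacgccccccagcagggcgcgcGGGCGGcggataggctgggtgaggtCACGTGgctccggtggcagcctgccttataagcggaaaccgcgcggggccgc

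Hmgcs1 and Srebf2 each held 1 SRE core and 1 CCAAT box, whereas the Insig1 window held neither and held 1 E-box. The GC box had 2 matches in Hmgcs1, 1 in Srebf2 and 2 in Insig1. The fourth window, that of Idi1 at chr13:8885356-8885500, had no match to any of them. Among 32851 promoters in the table, searched over the same length before the RefSeq start, 2.10% held the SRE core, 23.9% the CCAAT box, 28.3% the GC box and 4.20% the E-box. The motifs were chosen after the sequences had been seen, and a match is a run of letters, not a site of binding.

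The files held 16587 barcodes, of which 16532 passed the study's limits on genes per cell and mitochondrial share (2638 to 2861 cells per library). Total UMIs ran from 4768016 to 11086603 per library. The liver libraries were deeper, with a median of 3592 and 2880 UMIs per cell against 1470 to 1730.5 in the other 4. The defining T cell genes Cd3e, Cd3d and Zbtb16 had UMIs in every library (summed level 2623 to 3367 CPM, UMIs per 1000000 UMIs used). Summed hepatocyte genes reached at most 1.31, B cell genes 2.50 to 16.0 and myeloid genes 196 to 357 CPM, with Csf1r at 0 to 1.80 and C1qa at 0 to 4.94. Most of the myeloid sum was Cst3 (190 to 268 CPM), and Lyz2 had 107.5 in lymph node library 2, 9.39 in lymph node library 1 and 0.832 to 17.8 elsewhere. Any 2 libraries shared 6 to 20 cell barcodes. Both lymph node libraries stood apart in 2 further ways. Xist had 1393 to 1624 CPM in liver and spleen and 0 in lymph node, whereas Y-linked genes had 365 and 433 in lymph node and 0 elsewhere, so sex and lymph node cannot be told apart. Immediate early genes, which respond within minutes to stimulation and tissue handling, summed to 6688 and 7212 CPM in lymph node, 1417 and 1182 in spleen and 793 and 783 in liver. Their part in any result below was not tested.

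The 7 genes gave 4234 UMIs in all. Liver libraries had 943 and 1174 of them, spleen libraries 593 and 521 and lymph node libraries 500 and 503. Scaled to library size, the summed level was 132 and 192 CPM in liver, against 153 and 144 in spleen and 134 and 138 for lymph node. The mean was 162 ± 42.2 (SD, n = 2) for liver, 149 ± 6.00 for spleen and 136 ± 2.74 for lymph node, so the liver libraries spanned the others, and both spleen libraries lay above both lymph node libraries. A lower sum can come from fewer cells that use a gene or from less of its RNA in each cell, and these cannot be told apart in summed counts.

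**Figure D1:**
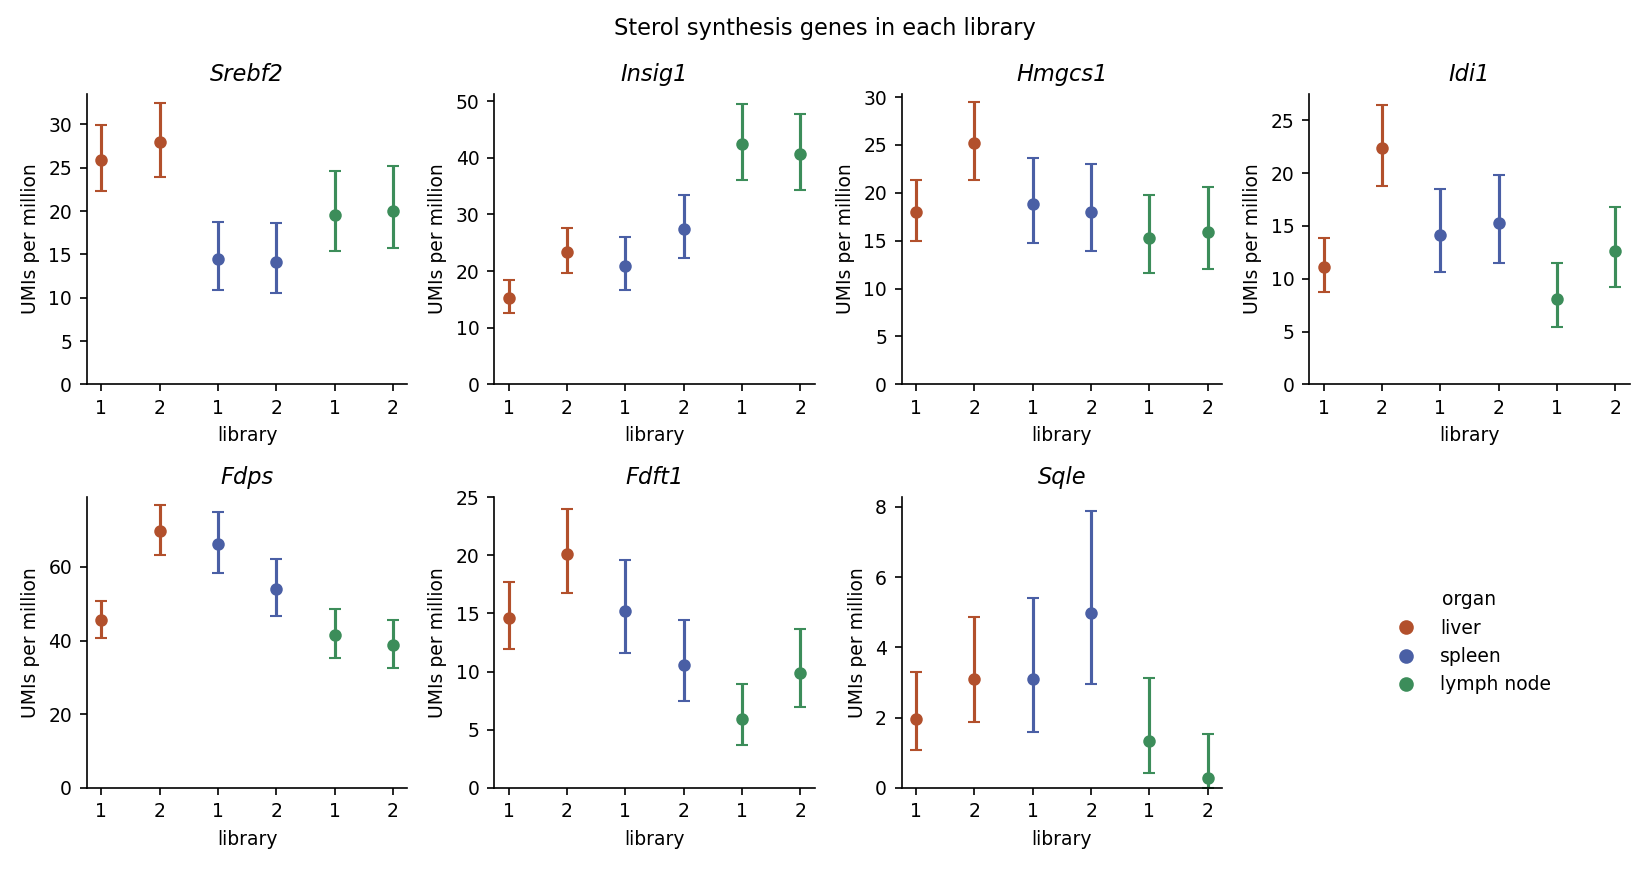
CPM of each gene (vertical axis, linear from 0) in the 2 libraries of liver, spleen and lymph node, summed over all cells. Bars are exact 95% Poisson intervals and cover counting error only. Srebf2 is highest in both liver libraries, Insig1 in both lymph node libraries, and the enzymes Hmgcs1, Idi1, Fdps and Fdft1 in liver library 2.

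Srebf2 and Insig1, the regulators, had different organ patterns. Srebf2 had 26.0 and 28.0 CPM in liver, against 14.4 and 14.1 in spleen and 19.6 and 20.0 for lymph node. The 3 pairs of libraries did not overlap, with liver at the top and spleen at the bottom. Liver was 1.79-fold above spleen (log2 fold 0.84 ± 0.20 SE, adjusted p = 0.00194 by edgeR's quasi-likelihood test). Lymph node did not pass the test against either neighbour in the order, with a log2 fold of 0.39 ± 0.19 when liver was set over lymph node (adjusted p = 0.100) and -0.45 ± 0.21 when spleen was (adjusted p = 0.156).

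Insig1, whose protein retains the SREBP complex, had 42.4 and 40.6 CPM in lymph node, 20.9 and 27.4 in spleen and 15.3 and 23.4 in liver. Both lymph node libraries lay above the other 4, and the spleen and liver libraries overlapped. The level in lymph node was 2.24-fold that in liver (log2 fold of liver over lymph node -1.16 ± 0.20, adjusted p = 2.57e-05) and 1.70-fold that in spleen (log2 fold of spleen over lymph node -0.76 ± 0.20, adjusted p = 0.00792). The difference from liver was called under all 14 alternatives (adjusted p 4.02e-09 to 0.00320), and that from spleen under 10 of 14 (up to adjusted p = 0.113 without spleen replicate 1). Liver over spleen gave a log2 fold of -0.40 ± 0.21 (adjusted p = 0.159), which was called without liver replicate 2 (-0.74, adjusted p = 0.0208) and was -0.079 (adjusted p = 0.853) without liver replicate 1. Insig1 was thus high in the libraries that also held the most immediate early UMIs and that differed in sex, and neither was tested as a source.

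Among the enzymes, Hmgcs1, the gene of the early step, had 18.0 and 25.2 CPM in liver, against 18.8 and 18.0 in spleen and 15.3 and 15.9 for lymph node, and no organ comparison of it passed the test (adjusted p 0.134 to 0.640). Idi1 had 11.1 and 22.4 in liver, against 14.2 and 15.2 in spleen and 8.04 and 12.6 for lymph node. Here the libraries of liver lay further apart than the means of any 2 organs, and no organ comparison of Idi1 was called either (adjusted p 0.140 to 0.841). Liver over lymph node gave a log2 fold of 0.41 for Hmgcs1, called under 1 of 14 alternatives, and 0.63 for Idi1, called under 3 of 14. Without liver replicate 1 these were 0.67 (adjusted p = 0.0330) and 1.10 (adjusted p = 0.00300), and without liver replicate 2 they were 0.13 (adjusted p = 0.722) and 0.029 (adjusted p = 0.952). The other calls of Idi1 came with the replicate block (0.62, adjusted p = 0.0387) and without the filter on low counts (0.67, adjusted p = 0.0255).

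Fdps, at the branch point to sterols and protein prenylation, had 45.5 and 69.8 CPM in liver, against 66.3 and 54.1 in spleen and 41.6 and 38.7 for lymph node. Spleen was 1.52-fold above lymph node (log2 fold 0.60 ± 0.19, adjusted p = 0.0339), and this call was lost when spleen replicate 1 (adjusted p = 0.178), lymph node replicate 1 (0.124) or lymph node replicate 2 (0.236) was left out. Liver over lymph node was 0.47 ± 0.19 and just missed (adjusted p = 0.0561), and 7 of 14 alternatives called it, with 0.78 (adjusted p = 0.000719) without liver replicate 1 at the upper end and 0.10 (adjusted p = 0.676) without liver replicate 2 at the lower end. Liver over spleen was -0.14 (adjusted p = 0.604) and was called without liver replicate 2 (-0.49, adjusted p = 0.0341).

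Fdft1, the first enzyme committed to sterols, had 14.6 and 20.1 CPM in liver, against 15.2 and 10.5 in spleen and 5.90 and 9.87 for lymph node. Every library of liver and spleen lay above both lymph node libraries. Liver was 2.11-fold above lymph node (log2 fold 1.08 ± 0.27, adjusted p = 0.00202), and the call was lost without lymph node replicate 1 (0.76, adjusted p = 0.0847). Spleen over lymph node gave 0.73 ± 0.30 (adjusted p = 0.0875), and without spleen replicate 2 it was called (0.95, adjusted p = 0.0427). Leaving out 1 library gave 0.42 to 1.13.

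Sqle was sparse. Liver gave 14 and 19 UMIs (1.96 and 3.11 CPM), spleen 12 and 18 UMIs (3.09 and 4.99 CPM) and lymph node 5 UMIs and 1 UMI (1.34 and 0.274 CPM). Spleen over lymph node was called at a log2 fold of 2.29 ± 0.65 (adjusted p = 0.0109), a fold that rests on 6 UMIs in lymph node. It was 1.57 (adjusted p = 0.217) without lymph node replicate 2 and 1.90 (adjusted p = 0.135) without spleen replicate 2. Without lymph node replicate 1 the fold was 3.79 (adjusted p = 0.0199). Liver over lymph node gave 1.54 ± 0.66 (adjusted p = 0.0649), with 3.04 (adjusted p = 0.0485) without lymph node replicate 1, 0.83 (adjusted p = 0.468) without lymph node replicate 2 and 2.10 (adjusted p = 0.0314) without cluster 5, 1001 cells (median 1561 UMIs) left out after the data had been seen.

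Counted over the 7 genes, 1 was called in liver over spleen, where 25.9% of all 10250 genes tested were called, 2 in liver over lymph node, where 37.5% were called, and 3 in spleen over lymph node, where 18.2% were called. The last count was 0 with DESeq2 and 0 to 3 when 1 library was left out. With all libraries, the 7 were near or below the shares of all genes in both liver comparisons. Both of these counts rose when 1 liver library was left out. The shares of all genes called under the alternatives were not set beside such counts. This reading is therefore given for the full set of libraries only. The median log2 fold of the 7 was 0.10, 0.47 and 0.53 in the same order, beside 0.020, 0.0063 and 0.0035 over all genes tested. Libraries of both organs did not overlap for 1 of 7 genes in liver over spleen (63.3% of all genes tested), for 6 of 7 in liver over lymph node (70.1%) and for 7 of 7 in spleen over lymph node (57.5%). The comparisons with a shared organ share its libraries.

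**Figure D2:**
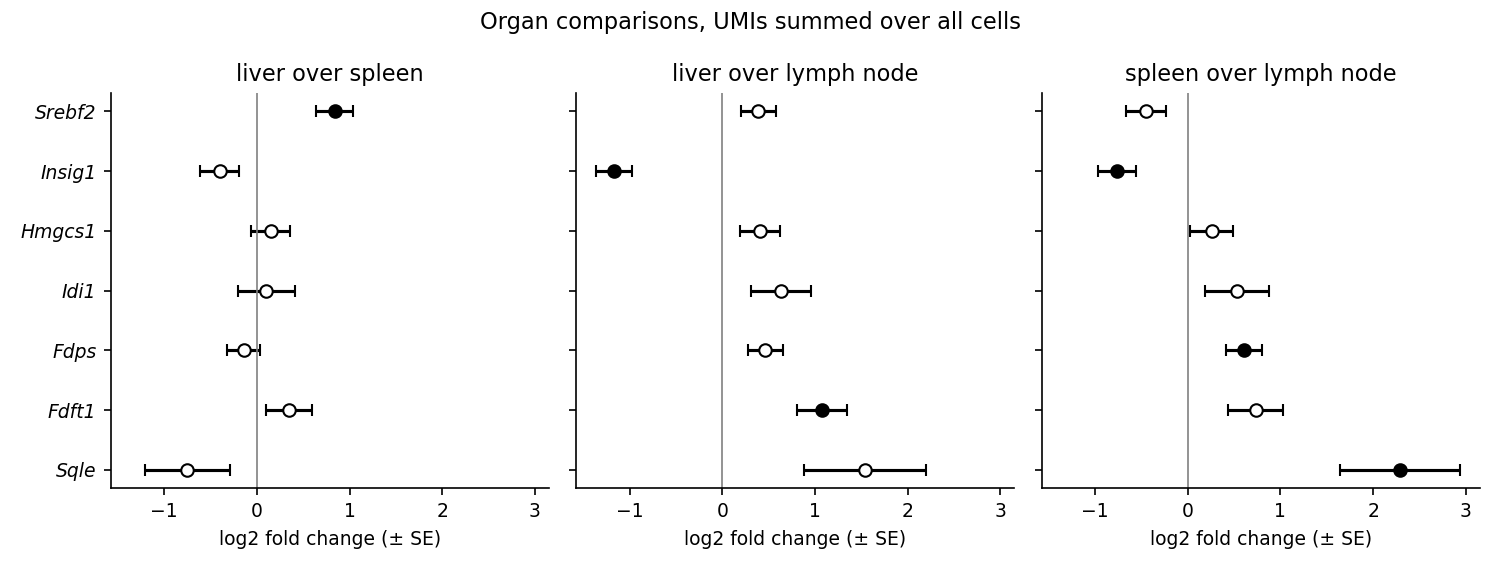
log2 fold change (horizontal axis) with its standard error for each gene in 3 organ comparisons, from UMIs summed over all cells. Filled points passed an adjusted p of 0.05 and open points did not. Insig1 lies left of 0 in all 3 panels, at -0.40, -1.16 and -0.76, and the 5 enzymes lie right of 0 in both comparisons with lymph node.

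The libraries of 1 organ also differed. All 7 genes were higher in liver library 2 than in liver library 1, by 1.08-fold (Srebf2) to 2.02-fold (Idi1), against 3 of 7 in spleen and 4 of 7 in lymph node for library 2 over 1. Summed cycling genes were 749 CPM in liver library 2 and 610 in liver library 1, and cells of the cycling cluster were 3.92% and 3.04%. Their part in the difference was not tested.

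Other genes of the pathway, on 5 lists, stood around the members without a common direction. Of 14 further enzymes of sterol synthesis 13 could be tested. Msmo1, a methyl sterol oxidase, was lower in liver than in spleen (log2 fold -0.71 ± 0.19, 29.8 ± 10.2 against 46.1 ± 0.659 CPM, SD, n = 2 each, adjusted p = 0.00736) and was the only one called in that comparison. Without liver replicate 1 it was not (-0.35, adjusted p = 0.190). In liver over lymph node, Lss, which closes the sterol rings, was higher (1.21 ± 0.38, adjusted p = 0.0126) and Nsdhl, a sterol dehydrogenase, lower (-0.70 ± 0.25, adjusted p = 0.0249). Each was called under 10 of 14 alternatives, and neither with DESeq2 (adjusted p = 0.105 for Lss and 0.137 for Nsdhl). In spleen over lymph node 0 of 13 passed with edgeR and 0 with DESeq2, while 3 had an unadjusted p below 0.05. These counts of 1, 2 and 0 of 13 stand beside 25.9%, 37.5% and 18.2% of all genes. The list medians were -0.016, -0.13 and -0.099.

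None of the 5 genes of the SREBP machinery (Srebf1, Scap, Insig2, Mbtps1, Mbtps2) was called between organs by edgeR or DESeq2, and 2 had an unadjusted p below 0.05 in liver over spleen and 0 in the other comparisons. Among 9 tested genes of sterol handling and efflux, Stard4, a sterol carrier, was higher in liver than in spleen (0.71 ± 0.21, adjusted p = 0.0118) and lymph node (0.88 ± 0.21, adjusted p = 0.00139). Abca1, the cholesterol efflux transporter, was lower in liver (-0.97 ± 0.19, adjusted p = 0.000161) and spleen (-0.65 ± 0.20, adjusted p = 0.0238) than in lymph node. Lipa, the lysosomal acid lipase, was lower too (-0.68 and -0.53, adjusted p = 0.00115 and 0.0273). Leaving out 1 library gave -0.79 to -0.31 for Lipa in spleen over lymph node. Mylip, which targets lipoprotein receptors for degradation, was higher in liver and spleen than in lymph node (0.64 and 0.53, adjusted p = 0.000973 and 0.0153). Nr1h2, an oxysterol receptor, was higher in liver than in spleen (0.46 ± 0.14, adjusted p = 0.0122), a call lost with DESeq2 (adjusted p = 0.0740) and without liver replicate 1 (0.109) or spleen replicate 2 (0.140). Against lymph node, the liver values of Stard4, Abca1 and Mylip were called under 14 of 14 alternatives and that of Lipa under 13. The spleen values of Abca1 were called under 9 of 14, those of Lipa and Mylip under 11 each, and Stard4 in liver over spleen under 10. In all, 2 of 9 were higher in liver than in spleen, 2 were higher and 2 lower in liver than in lymph node, and 1 was higher and 2 lower in spleen than in lymph node, beside 25.9%, 37.5% and 18.2% of all genes called in the same comparisons. DESeq2 called 0, 4 and 0 of the 9 in the same order. Without lymph node replicate 2 the log2 folds of spleen over lymph node were -0.63 for Abca1, -0.40 for Lipa and 0.41 for Mylip.

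Of the genes that use isoprenoids, Ggps1, which draws on the product of Fdps to make geranylgeranyl diphosphate, was lower in liver than in spleen (-0.62 ± 0.15, adjusted p = 0.00257) and lymph node (-0.75 ± 0.15, adjusted p = 0.000140). Pggt1b was lower in liver than in spleen (-0.67 ± 0.22, adjusted p = 0.0201), Fntb was higher in liver than in lymph node (0.73 ± 0.21, adjusted p = 0.00555), and 0 of 8 passed in spleen over lymph node by edgeR or DESeq2 (0 with an unadjusted p below 0.05). Both calls of Ggps1 held under 14 of 14 alternatives, that of Pggt1b under 10 and that of Fntb under 13 (0.46, adjusted p = 0.174 without lymph node replicate 1). The fatty acid synthesis genes, the neighbouring branch of SREBP control, had 5 of 8 called in liver over spleen (3 higher, 2 lower), 3 of 8 in liver over lymph node (all higher) and 1 of 8 in spleen over lymph node, beside the 25.9%, 37.5% and 18.2% of all genes. Elovl5 was higher in liver than in spleen (1.05 ± 0.15, adjusted p = 5.98e-06) and lymph node (0.80 ± 0.15, adjusted p = 5.84e-05). Fasn was too (0.97 ± 0.22 and 1.01 ± 0.22, adjusted p = 0.00129 and 0.000436). Acss2 was lower in liver than in spleen (-0.73 ± 0.17, adjusted p = 0.00195). These calls held under 14 of 14 alternatives, and that of Acss2 in spleen over lymph node under 13. Fads1 was not called with DESeq2 in liver over spleen (adjusted p = 0.0865) or liver over lymph node (0.232). Acly, the ATP citrate lyase, was not in liver over spleen (0.0718). The calls of Fads1 and Acly also depended on single libraries. Leaving out 1 library gave log2 folds of 1.35 to 2.69 for Fads1 and -0.57 to -0.21 for Acly in liver over spleen. For Fads1 in liver over lymph node it gave 0.66 to 2.20.

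Cells were then sorted into classes by clustering, with the 7 genes and all genes of the 5 pathway lists kept out of the genes used. Classes were named from marker genes. The iNKT1-like class (8141 cells, clusters 0, 1 and 5) held most liver and spleen cells but only 135 and 206 cells of the lymph node libraries. A cluster of 2841 cells, 2711 of them from lymph node, led by Nrgn, Ccl1 and the immediate early gene Dusp1, stayed unnamed. The rest were iNKT17-like (2017), RTE-like (1324, like recent thymic emigrants), NF-kB-like (708), Gzma-like (521), Ifit-like (480, interferon response) and cycling (470) cells and 30 cells with both B cell and myeloid genes.

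Liver and spleen cells of the iNKT1-like class lay mostly in different clusters. Cluster 1 held 1740 and 1491 liver but 56 and 25 spleen cells. Cluster 0 held 23 and 76 liver but 1720 and 1799 spleen cells. Cluster 5 held 393 and 371 liver cells with 68 and 38 spleen cells. In this class, Srebf2 had 26.5 and 26.8 CPM in liver and 14.8 and 11.5 in spleen. Liver was again above spleen (log2 fold 0.93 ± 0.26, adjusted p = 0.0030), and this was not called without spleen replicate 2 (adjusted p = 0.102) or with DESeq2 (adjusted p = 0.0598). Idi1, with 8.70 and 23.2 in liver and 8.07 and 7.68 in spleen, was called as well (0.88 ± 0.33, adjusted p = 0.0382), but the log2 fold was 0.027 (adjusted p = 0.978) without liver replicate 2, and 5 of 11 alternatives called it. These were 2 of 7 members, beside 22.3% of all genes in liver over spleen.

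Against the few iNKT1-like cells of lymph node (12 and 28 UMIs of the 7 genes), 0 of 7 were called by edgeR in liver over lymph node (7.29% of all genes; 2 members had an unadjusted p below 0.05) and 0 of 7 in spleen over lymph node (2.69% of all genes; 0 had). DESeq2 called 0 in both. Insig1 had 31.4 and 47.5 CPM there, on 4 and 9 UMIs, and gave a log2 fold of -1.12 ± 0.49 for liver over lymph node (adjusted p = 0.172). At a finer clustering, in which most of the unnamed lymph node cells joined the class, Insig1 was called against liver (-1.27, adjusted p = 0.000143) and spleen (-0.81, adjusted p = 0.0368), and Fdps against liver (0.68, adjusted p = 0.0123).

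In lymph node, Insig1 had 35.3 and 42.7 CPM in iNKT17-like cells (46 and 59 UMIs) and 48.5 and 38.2 in the unnamed cluster (86 and 61 UMIs). The few iNKT17-like cells of spleen had 10.2 and 0 (1 UMI and 0) and those of liver 0 UMIs, whereas the few cells of the unnamed cluster from spleen had 75.7 and 82.0 (5 and 2 UMIs) and those from liver 0 and 44.5 (0 and 4 UMIs). These counts are too few to order the organs in that cluster. In RTE-like cells it had 60.8 and 67.3 in lymph node (11 and 8 UMIs), against 19.9 and 19.0 in spleen and 6.43 and 19.6 in liver, though the lymph node RTE-like cells lay mostly in another cluster (10) than those of spleen and liver (4). Cycling cells of lymph node had 22.8 and 28.0, next to 17.6 and 23.2 in spleen and 9.69 and 19.9 in liver. Ifit-like cells had 44.4 and 18.4 in lymph node (4 UMIs and 1 UMI), against 37.6 and 54.5 in spleen and 13.3 and 23.9 for liver, and the 11 and 26 Gzma-like cells of lymph node had 0 UMIs of Insig1. NF-kB-like cells had 23.5 and 20.2 in liver, against 26.6 and 61.6 in spleen (2 and 4 UMIs) and 85.5 and 45.0 for lymph node (2 UMIs and 1 UMI, in 18 and 23 cells). These values were not tested class by class.

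**Figure D3:**
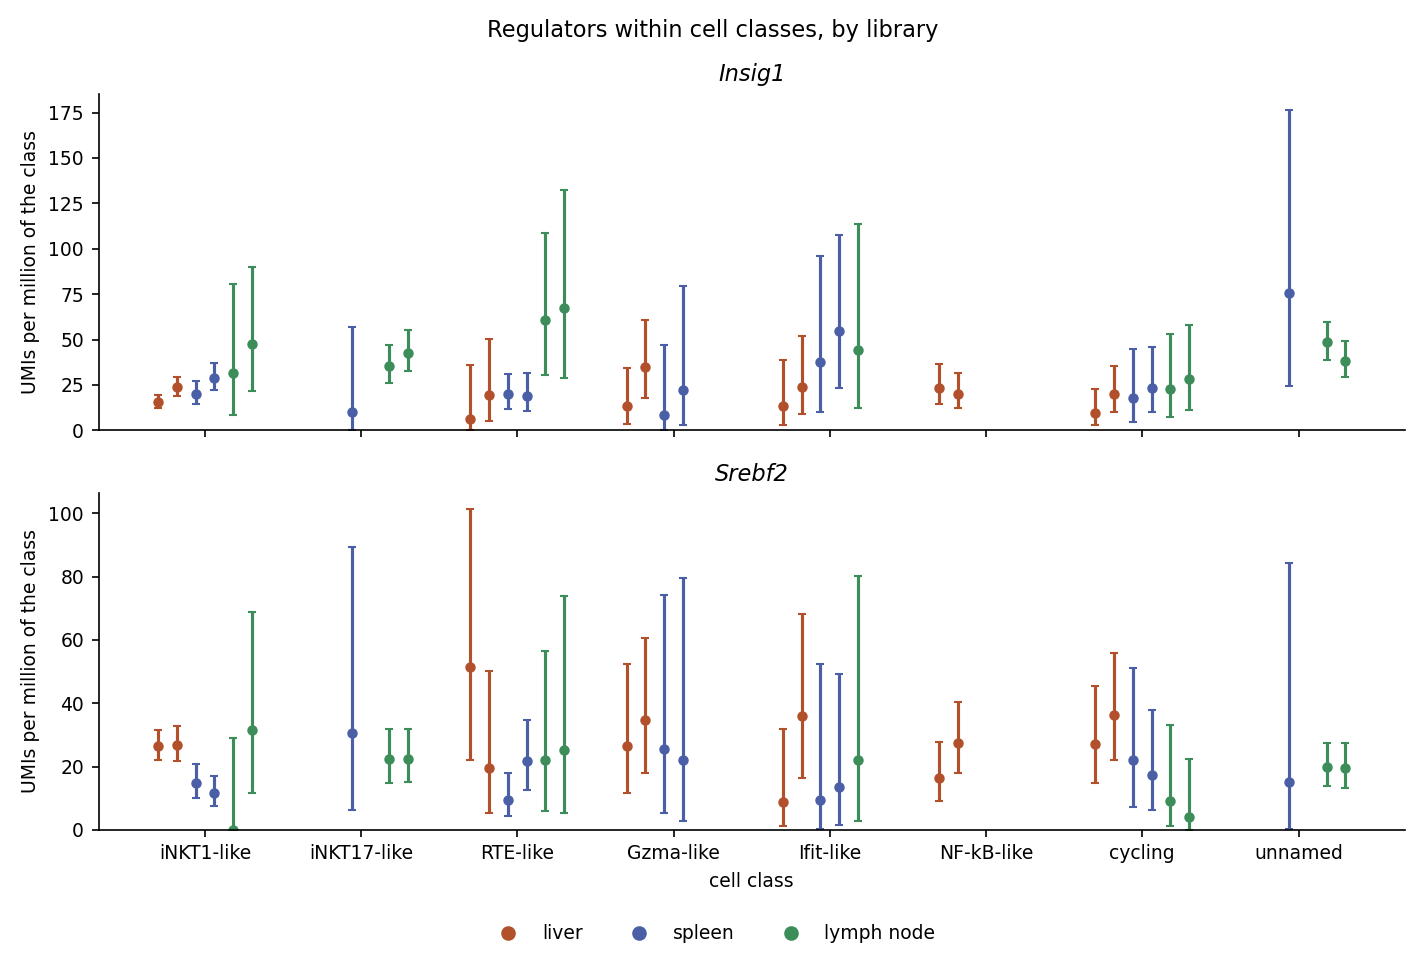
CPM (vertical axis, linear from 0) of Insig1 and Srebf2 within each cell class, 1 point per library with at least 50 cells of that class, with exact 95% Poisson intervals. For Insig1 the lymph node points lie between 22.8 and 67.3, and for Srebf2 the liver points of the iNKT1-like class (26.5 and 26.8) lie above the spleen points (14.8 and 11.5).

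With libraries weighted equally (those with at least 20 cells of a class), the summed level of the 7 genes was 132 ± 29.8 CPM in iNKT1-like (SD, n = 6), 173 ± 35.1 in iNKT17-like (n = 6), 197 ± 35.6 in RTE-like (n = 6), 139 ± 39.0 in Gzma-like (n = 5), 134 ± 51.9 in Ifit-like (n = 6), 139 ± 64.2 in NF-kB-like (n = 5) and 193 ± 69.5 in cycling cells (n = 6), and 151 ± 31.5 in the unnamed cluster (n = 5). Classes differ in their organs, and with cells of all libraries pooled NF-kB-like cells were at 180 and iNKT17-like cells at 145. Within each of the 6 libraries RTE-like cells (161 to 244) lay above iNKT1-like cells (94.3 to 180). Cycling cells (123 to 307) lay above iNKT1-like cells in 5 of 6 libraries. Lymph node library 2 was the exception (128 against 148), and it was the exception for iNKT17-like cells too (137 against 148). These contrasts were not tested. RTE-like cells gave 17 of the 69 UMIs of Sqle (24.6%), while they made up 8.01% of cells and 8.54% of UMIs. Of the 17, 14 came from spleen, 3 from liver and 0 from lymph node. Cycling cells gave 10 (14.5%, with 7.51% of UMIs) and NF-kB-like cells 9 (13.0%, with 7.04% of UMIs).

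Cycling cells were compared with the other cells of the same library. Idi1 was higher in cycling than in other cells of the same library in 6 of 6 libraries. In cycling cells it had 27.1 and 23.5 CPM in liver, against 52.7 and 40.5 in spleen and 27.4 and 20.0 for lymph node. In the other cells it had 9.83 and 22.3, 11.8 and 12.6, and 6.84 and 12.1. The log2 fold was 1.31 ± 0.27 (adjusted p = 0.000101, library as a block), and all 11 alternatives in which Idi1 could be tested called it (adjusted p 1.15e-06 to 0.00439).

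Fdps was also higher in 6 of 6 libraries, with a log2 fold of 0.55 ± 0.15 (adjusted p = 0.00327), from 73.9 ± 34.0 CPM in cycling cells against 51.0 ± 11.8 in the others (SD, n = 6). It was called under 10 of 12 alternatives, and not without the block (0.60, adjusted p = 0.0933) or in thinned sums. Fdft1 was higher in 5 of 6, with 0 UMIs in cycling cells of lymph node library 1, and gave 0.79 ± 0.28 (adjusted p = 0.0270). The call of Fdft1 was lost without liver replicate 1 (adjusted p = 0.112), spleen replicate 1 (0.129) or lymph node replicate 2 (0.0671), and also with DESeq2 (0.0902), without the filter on low counts (0.0516) and without the block (0.136), so that 5 of 11 alternatives called it. Hmgcs1 (0.35 ± 0.25, adjusted p = 0.297), Srebf2 (0.10 ± 0.25, adjusted p = 0.792) and Insig1 (-0.40 ± 0.23, adjusted p = 0.197) did not pass. Insig1 was nevertheless lower in cycling cells in all 6 libraries, and Sqle, with 10 UMIs in cycling cells, was too low to test.

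Thus 3 of the 6 tested members were called, beside 33.0% of all 8840 genes, and the median of the 6 was 0.45 beside -0.064 over all genes. Cycling cells were also deeper, with a median of 4022 to 8179 UMIs per cell against 1458.5 to 3563 in the others. After each sum was thinned to the lowest total only Fdps passed the filter, at a log2 fold of 0.29 (adjusted p = 0.309). Although the members did not enter the clustering, cycling cells and their values come from the same cells, so the p-values describe how evenly the libraries show the difference. Of the 40 tested genes of the 5 pathway lists 7 were called (17.5%), also beside 33.0% of all genes. Acat2 (0.53 ± 0.21, adjusted p = 0.0409) and Pmvk (0.72 ± 0.22, adjusted p = 0.0102), early enzymes of the chain, were higher in cycling cells, as were Pdss1 (1.24 ± 0.41, adjusted p = 0.0172), which draws on isoprenoids for ubiquinone, and Scd2 (0.86 ± 0.21, adjusted p = 0.000965), a fatty acid desaturase. Mylip (-0.90 ± 0.21, adjusted p = 0.000681), the efflux transporter Abcg1 (-0.74 ± 0.18, adjusted p = 0.00140) and Acss2 (-0.78 ± 0.28, adjusted p = 0.0249) were lower. Scd2 and Mylip were called under 11 of 11 alternatives, Abcg1 under 11 of 12, Pdss1 under 9, Pmvk under 8, Acss2 under 7 and Acat2 under 5 of 11. Without liver replicate 1 Pmvk was 0.44 (adjusted p = 0.197), and without spleen replicate 2 Acss2 was -0.47 (adjusted p = 0.206).

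**Figure D4:**
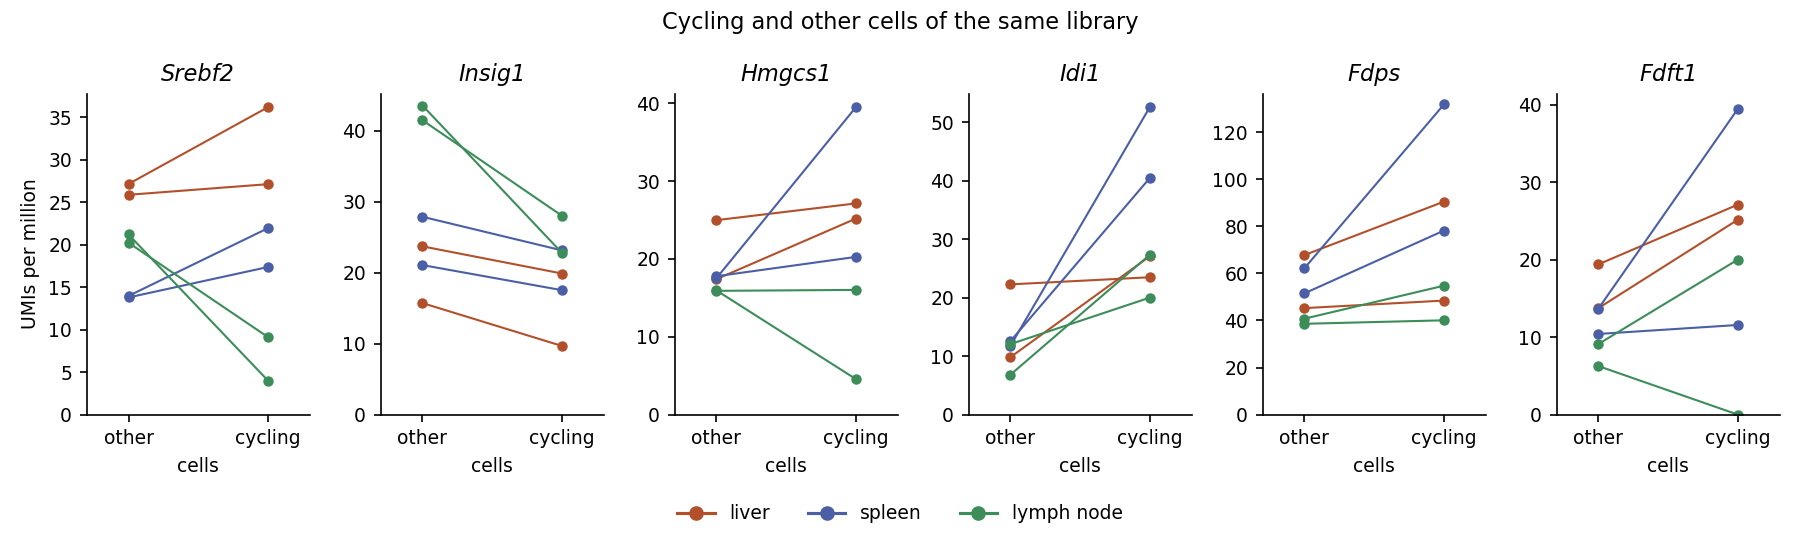
CPM (vertical axis, linear from 0) of 6 genes in cycling and other cells, with a line for each of the 6 libraries, coloured by organ. Lines of Idi1 and Fdps rise in 6 of 6 libraries, those of Fdft1 in 5, and those of Insig1 fall in all 6, although Insig1 did not pass the test (adjusted p = 0.197).

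NF-kB-like cells, marked by genes of recent NF-kB activation, were mostly of liver (245 and 344 cells). In liver Fdps had 58.8 and 74.2 CPM in them against 43.7 and 69.0 in the other cells, and Idi1 16.5 and 28.6 against 10.4 and 21.3. The 5 libraries with at least 20 such cells gave 0 of 6 members called by edgeR, 0 with an unadjusted p below 0.05 and 0 called by DESeq2, beside 21.0% of all genes. The log2 folds ran from -0.35 ± 0.26 (Srebf2) to 0.46 ± 0.28 (Idi1). Between iNKT17-like and iNKT1-like cells, Hmgcs1 was higher in the iNKT17-like cells of 5 of 6 libraries (log2 fold 1.37 ± 0.46, adjusted p = 0.0375), and this was 1 of 4 members tested, beside 10.0% of all genes. The value rests on few UMIs, with 1 to 6 in iNKT17-like cells of liver and spleen and 0 and 2 in iNKT1-like cells of lymph node, and 8 of 11 alternatives did not call it (adjusted p up to 0.384).

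In single cells these genes were seldom seen. Of all 16532 cells, 3286 (19.9%) had at least 1 UMI of any of the 7 genes, and 625 (3.78%) had 2 or more. The share was 26.5% (exact Clopper-Pearson 95% interval 24.8 to 28.1) and 28.9% (27.2 to 30.6) for liver, 15.8% (14.5 to 17.3) and 15.3% (13.9 to 16.7) for spleen, and 16.9% (15.5 to 18.4) and 15.3% (14.0 to 16.6) for lymph node. When each cell was thinned to 1000 UMIs, leaving out the 0 to 488 shallower cells of a library, the share was 7.14% and 11.6% for liver, 8.67% and 9.09% for spleen and 9.86% and 9.75% for lymph node. Liver library 1 was then the lowest and liver library 2 the highest. Ribosomal and haemoglobin genes, 34.4% and 32.1% of liver UMIs against 23.4% to 28.5% elsewhere, count toward these 1000. Thinned instead to 700 UMIs of the genes used, an alternative added after seeing the data, the share was 8.04% and 11.7% for liver, 8.60% and 8.55% for spleen and 9.65% and 8.27% for lymph node, and the liver libraries again lay on both sides of the other 4. All cells use this pathway, so no cell type could give a background of free RNA, and the intervals cover counting error only.

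**Figure D5:**
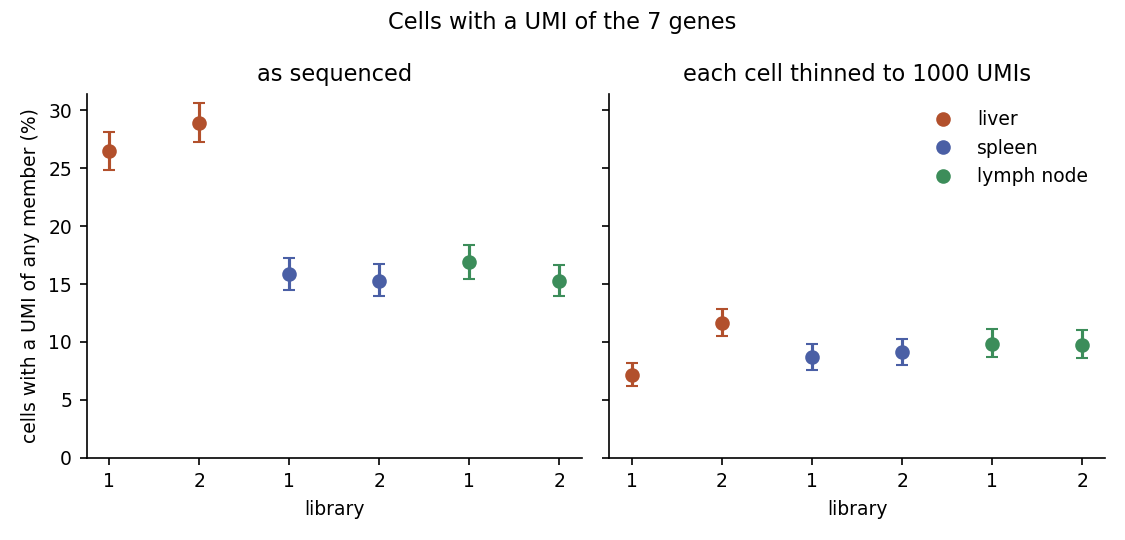
Share of cells (vertical axis, percent, linear from 0) with a UMI of any of the 7 genes in each library, as sequenced and after thinning each cell to 1000 UMIs, with exact 95% intervals. As sequenced the liver libraries lie at 26.5% and 28.9%, and after thinning all libraries lie between 7.14% and 11.6%.

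After thinning to 1000 UMIs, cells with Insig1 were 3.29 ± 0.585% (SD, n = 2) in lymph node, 1.65 ± 0.798% in spleen and 1.54 ± 0.456% in liver, and both lymph node libraries lay above the other 4. Cells with Srebf2 were 1.84 ± 0.477% in liver, 1.77 ± 0.0666% in lymph node and 1.16 ± 0.442% in spleen, with both lymph node libraries between the 2 liver libraries. Thinned to 700 UMIs of the genes used, these were 2.88 ± 0.512%, 1.41 ± 0.163% and 1.53 ± 0.338% for Insig1 in lymph node, spleen and liver, and 1.41 ± 0.0416%, 0.910 ± 0.0443% and 1.86 ± 0.310% for Srebf2.

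Across the 35 sums of 1 class in 1 library with at least 50 cells, Pearson's r between log2 levels of 2 members ran from -0.42 (Insig1 with Idi1) to 0.73 (Hmgcs1 with Srebf2). The genes most like the members' summed level were, among 5916 with at least 20 CPM on average, Eif2s1 (r = 0.66), Hcfc1 (0.62), Cct8 (0.61), Sptan1 and Sec23ip (0.60 each), Vdac3 (0.60), Tagln2 (0.57), Snrpd2 (0.57), Psma1 and Rad50 (0.56 each). These sums share libraries and depth and hold few member UMIs, so the values are a description.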

How the data were processed

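Single-cell RNA was measured in 6 libraries of sorted mouse iNKT cells. Per the labels and the study's methods, the authors prepared 10x Chromium 3′ libraries, and the reads were aligned to mm10 and counted with Cell Ranger 3.1.0. Each of the deposited matrices is a table of counts, in unique molecular identifiers (UMIs) by gene and barcode, that had not been normalized. The deposited gene and barcode lists hold other values, namely identifiers, symbols and barcodes. Seurat, which the submitters' notes also name, was not used here.

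Of the barcodes, 2 fell under 300 genes, 10 exceeded 4000 genes and 45 exceeded 15% mitochondrial UMIs, and 55 barcodes in all were removed, since some met more than 1 of these limits. The study also excluded cells with both Xist and Y-linked genes, and 0 of the 16532 remaining cells had both. More cells remained than the study kept. These limits include the study's filters against doublets, and no doublet caller was used to remove cells in the main setting. In all, 111 ribosomal and haemoglobin genes (23.4% to 34.4% of UMIs per library) were left out. Cells were clustered with scanpy 1.11.5 and leidenalg 0.10.2 (3000 variable genes, 20 components, resolution 0.5). A cluster was named where at least 3 markers of a class reached a log2 fold of 1 over the other cells and their median did too. For iNKT1-like cells the fold was taken over the iNKT17-like cells, and the median of iNKT2 markers had to be below 0.5. This rule was set after the clusters had been seen. Names may therefore differ from the study's.

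UMIs were summed per library and tested with edgeR 4.0.16 (filterByExpr with minimum count 10, TMM, robust quasi-likelihood fit) in R 4.3.3, with organ as the only term over 6 libraries, or with library as a block for cell classes (sums of at least 20 cells). A gene was called when its p, adjusted by Benjamini-Hochberg over all genes tested, was below 0.05. CPM are UMIs per 1000000 UMIs of the genes used. With 2 libraries per organ, p-values measure only the spread between these libraries. Promoter letters came from the RefSeq table, locations from GENCODE vM21. From the pathway lists, at most 12 genes per comparison were to be named, those called with the largest folds and at least 3 CPM in 1 group. The tests were first run on simulated counts with known changes. The members, lists and tests were chosen with earlier results of these data known. Alternatives were DESeq2 1.42.0, no filter, each replicate left out, ribosomal genes kept, thinned sums, the replicate block, leaving out cycling cells or the 334 cells of highest doublet score, and finer clusters. A setting without cluster 5 and thinning over the genes used were added after the data had been seen.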

Additional observations from a re-analysis of the deposited data

How the results depend on the processing

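Among counts of members called, leaving out 1 library gave 1 to 3 in liver over spleen, 2 to 5 in liver over lymph node, 0 to 3 in spleen over lymph node, 0 to 2 in iNKT1-like cells of liver over spleen, 0 in iNKT1-like cells against lymph node, 2 to 3 in cycling cells, 0 in NF-kB-like cells and 0 to 1 in iNKT17-like cells. In liver over lymph node, 5 were called without liver replicate 1. In liver over spleen, 3 were called without liver replicate 2. In spleen over lymph node, 1 was called without spleen replicate 1 or lymph node replicate 1 and 0 without lymph node replicate 2. In iNKT1-like cells of liver over spleen, 1 was called without spleen replicate 1 and 0 without spleen replicate 2. In iNKT17-like cells 0 were called without liver replicate 1, liver replicate 2, spleen replicate 2 or lymph node replicate 1. DESeq2 called 0 members in spleen over lymph node (Insig1 at adjusted p = 0.0501), 0 in iNKT1-like cells of liver over spleen and 0 in iNKT17-like cells. DESeq2 and the setting without the low-count filter each left 2 members called in cycling cells, Fdft1 being lost. Without the filter on low counts 4 were called in liver over lymph node and 0 in iNKT17-like cells. Leaving out cluster 5, an alternative chosen after seeing the data, gave 4 in liver over lymph node. With ribosomal genes kept, 1 was called in iNKT1-like cells of liver over spleen. At resolution 1.0 the counts were 1, 2 and 1 in iNKT1-like cells of liver over spleen, liver over lymph node and spleen over lymph node, and 0 in iNKT17-like cells. Thinning the sums left 0 of 1 tested member in cycling cells, by the construction of that setting, and no member to test in iNKT1-like, NF-kB-like and iNKT17-like cells. Thinning cells gave shares of 9.39%, 8.88% and 9.80% in liver, spleen and lymph node, in place of 27.7%, 15.6% and 16.1%, and thinning over the genes used, added after seeing the data, gave 9.86%, 8.58% and 8.96%. The shares of all genes called in each alternative were not set beside these counts, which therefore do not compare the members with all genes. Where nothing else is said, the cause was not tested.

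The labels name no pairing of the organs by replicate number. Same-numbered libraries deviated together only weakly (r = 0.086, 0.083 and 0.068 across 10250 genes). Counting error in single libraries lowers such values, so they cannot decide whether same-numbered libraries share animals or a day. With the replicate block 3 members were called in liver over lymph node, Idi1 being added (0.62, adjusted p = 0.0387), and the counts of the other organ comparisons stayed at 1 and 3 over all cells and 2, 0 and 0 in iNKT1-like cells. Without the block by library, 1 member (Idi1) was called in cycling cells and 0 in iNKT17-like cells, and log2 folds turned to -0.042 for Insig1 in NF-kB-like cells and 0.44 for Insig1 in iNKT17-like cells.

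Other folds that changed sign had not been called. They were Idi1 in iNKT1-like cells of spleen over lymph node at resolution 1.0 (0.47) and Fdft1 in NF-kB-like cells with DESeq2 (-0.067). Leaving out 1 library gave -0.13 to 0.42 for Hmgcs1, -0.50 to 0.57 for Idi1 and -0.49 to 0.18 for Fdps in liver over spleen. In iNKT1-like cells of the same comparison it gave -0.090 to 0.56 for Hmgcs1, -0.26 to 0.34 for Fdps, -0.023 to 0.78 for Fdft1 and -0.46 to 0.032 for Sqle. In iNKT1-like cells of liver over lymph node it gave -0.16 to 8.31 for Idi1 and -0.24 to 9.10 for Srebf2. In those of spleen over lymph node it gave -0.91 to 7.41 for Idi1 and -1.16 to 8.15 for Srebf2. The large values arose where the lymph node library that remained had 0 UMIs of the gene. In cycling cells Srebf2 ranged from -0.079 to 0.26, and in NF-kB-like cells Insig1 from -0.049 to 0.66, Fdps from -0.043 to 0.26 and Fdft1 from -0.31 to 0.25. Where 1 library of an organ was left, it was assumed to vary like the others. Depth limits Sqle (69 UMIs in all) and every lymph node value in iNKT1-like cells.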

Other observations

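Of the fatty acid synthesis genes, 4 of 8 were called in iNKT1-like cells of liver over spleen, beside 22.3% of all genes. Liver and spleen cells of the class lay mostly in different clusters (1 and 0). Fads1, a fatty acid desaturase (log2 fold of liver over spleen 1.82 ± 0.57, adjusted p = 0.0108), Fasn, the fatty acid synthase (1.10 ± 0.29, adjusted p = 0.00208), and the elongase Elovl5 (0.92 ± 0.19, adjusted p = 2.17e-05) were higher. Acss2, which makes acetyl-CoA from acetate, was lower (-0.75 ± 0.20, adjusted p = 0.00193). Elovl5 had 57.2 ± 0.0849 CPM in liver against 28.5 ± 1.57 in spleen (SD, n = 2 each), and Fasn 21.1 ± 1.68 against 9.22 ± 2.17. Stard4 was higher (0.73 ± 0.26, adjusted p = 0.0287), and Ggps1 (-0.59 ± 0.19, adjusted p = 0.00978) and Msmo1 (-0.59 ± 0.19, adjusted p = 0.0113) were lower. Without spleen replicate 1 Fads1 was not called (0.99, adjusted p = 0.376), nor was it without liver replicate 1 (adjusted p = 0.202), and without spleen replicate 2 Fasn was not (0.91, adjusted p = 0.101). Elovl5 was called under 11 of 11 alternatives, Acss2 and Fasn under 10, Ggps1 under 8, Stard4 under 7 and Msmo1 under 6 (-0.16, adjusted p = 0.707 without liver replicate 1).

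In NF-kB-like against other cells, 5 of 41 tested genes of the pathway lists were called (12.2%), beside 21.0% of all genes. Pdss1 (1.58 ± 0.38, adjusted p = 0.000787) and Fasn (0.97 ± 0.23, adjusted p = 0.000292) were higher, each in 4 of 5 libraries. Insig2, the second INSIG gene, was lower in 5 of 5 libraries (-0.81 ± 0.22, adjusted p = 0.00224), as was Abcg1 (-0.60 ± 0.20, adjusted p = 0.0139). Mylip was lower in 4 of 5 (-0.64 ± 0.19, adjusted p = 0.00567). In NF-kB-like cells UMIs were few: 22 for Pdss1, 53 for Insig2, 72 for Abcg1, 75 for Fasn and 76 for Mylip. The spleen libraries and lymph node library 2 gave only 43, 35 and 23 such cells. Pdss1, Fasn and Insig2 each fell to 0 CPM in their lowest library. DESeq2 called none of these 5 genes (adjusted p 0.0768 to 0.190), and none was called without liver replicate 1 (adjusted p 0.114 to 0.2395). Between iNKT17-like and iNKT1-like cells 1 of 31 was called, beside 10.0% of all genes. Abcg1 was lower in iNKT17-like than in iNKT1-like cells in 6 of 6 libraries (-0.93 ± 0.27, adjusted p = 0.0134), a call lost with DESeq2 (0.0537), without liver replicate 1 (0.0586) or spleen replicate 1 (0.0816) or without the block (-0.36, 0.493).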
